A study of Canis lupus familiaris with 23 samples.

Results

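Genes of the FGF, PDGF, VEGF, IGF, TGF-beta, BMP, GDF, SMAD, Wnt and Frizzled families were followed in canine osteosarcoma, a malignant tumor of bone-forming cells. A gene was taken when its symbol began with FGF, PDGF, VEGF, IGF, TGFB, BMP, GDF, INHB, SMAD, WNT, FZD or NOTCH. BMP1, BMP2 and TGFB2 were left out by the rule. Each gene was represented by 1 probe set, the one with the highest mean over all 23 samples. Tumors were 15 of these samples, so the choice favors probe sets that are high in tumors. The rule found 37 genes among the 6540 that had a probe set with 1 symbol. They were 10 of the FGF family, 8 of the IGF axis, 6 of the BMP family, and 2 each of the PDGF, TGF-beta, GDF, SMAD, Wnt and Frizzled families, with VEGFA as the 1 VEGF gene. No probe set with 1 symbol met the rule for INHB or NOTCH. BMP2K, FGFR1OP2 and IGF2BP2 entered by name alone: BMP2K is a kinase named for its induction by BMP2, FGFR1OP2 was named as a fusion partner of FGFR1 in a human blood cancer, and IGF2BP2 binds RNA.

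Growth factors of these families are secreted and act on neighboring cells. FGF, PDGF, VEGF and IGF ligands bind receptor tyrosine kinases, whereas TGF-beta and BMP ligands bind serine/threonine kinase receptors that phosphorylate SMAD proteins, and Wnt ligands bind Frizzled receptors. In bone, BMP, TGF-beta, Wnt and FGF signals direct the formation of osteoblasts, and IGF and TGF-beta are stored in the mineralized matrix.

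RNA was measured on Affymetrix canine arrays in 5 groups. The groups were 2 canine osteosarcoma cell lines, 15 tumors, 2 kidney, 2 liver and 2 lymph node samples. The tumors came from dogs with primary osteosarcoma and were taken before chemotherapy, and the normal organs came from dogs of a research colony. The methods name the cell lines MC-KOSA and BW-KOSA, and the labels do not tie a sample to a line. No normal bone was among the samples. A difference between tumors and normal samples is thus a difference between a bone tumor and kidney, liver and lymph node. The study describes the organ samples as biological replicates, and the labels do not say whether samples of different organs share a dog. Tumors are mixed tissue, in which fewer cells of a type and less RNA per cell cannot be told apart. Values are RMA expression values on the log2 scale, and differences are in log2 units. A gene is called higher or lower where the adjusted p in limma is under 0.01, adjusted by the method of Benjamini and Hochberg over 23836 probe sets. Many of the lower values lie near the array medians of 4.73 to 4.95, and no detection calls were used, so differences are given without a fold.

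Organ labels matched their markers. The mean of 6 hepatocyte genes was 11.6 to 12 in liver and at most 7.10 elsewhere, that of 6 kidney tubule genes was 8.89 to 9.28 in kidney and at most 6.58 elsewhere, and that of 2 lymphocyte genes was 9.41 to 10.4 in lymph node and at most 7.27 elsewhere. The mean of 4 stroma and fibroblast genes was 9.61 to 10.2 in cell lines, 10.4 to 12.8 in tumors and 6.14 to 7.85 in normal samples. For 6 osteoblast and bone matrix genes it was 6.79 to 7.28 in cell lines and 7.45 to 9.45 in tumors. Kidney reached 7.41 for these 6 genes, close to the lowest tumor. In 10 arrays, 7 of tumors and 1 of each organ, the 5′ ends of the actin and Gapdh control transcripts gave low signal (3′ minus 5′ difference of 3.15 to 6.45, against at most 0.85 in the other 13). The mean of this difference was 0.67 in cell lines, 1.82 in tumors and 3.22 in normal samples.

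The first comparison set tumors against the 6 normal samples. Of the 37 genes, 4 were called, or 10.8%, against 5.95% of all probe sets (1419 of 23836) and 9.25% of the 6540 genes. PDGFRL, PDGFD and BMP6 were higher in tumors and FGFR4 was lower. The median difference was 0.36 over the 37 genes, 0.02 over the 6540 genes and -0.02 over all probe sets, and 28 of the 37 differences were above 0.

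PDGFRL encodes a secreted protein that resembles the extracellular part of the PDGF receptors and has no kinase. It ranged over the tumors between 8.60 (tumor 3) and 12.33 (tumor 14), with a median of 10.24. Its values were 6.89 and 4.26 in kidney, 4.86 and 3.69 in liver, and 8.14 and 5.27 in lymph node. Every tumor lay above the highest normal sample, with tumor 3 close to lymph node 1. The difference was 4.90 ± 0.53 (SE), with an adjusted p of 2.75e-06 in limma. In each organ the sample with low 5′ signal, replicate 1, had the higher value of the pair. Among arrays with low 5′ signal alone the difference was 4.06 with an adjusted p of 0.015.

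The 6 probe sets named PDGFRL did not move together. The second by mean level was also higher in tumors, by 2.19 ± 0.34 (adjusted p = 0.000181), with all 15 tumors above the highest normal sample. The other 4 differed by -0.30 ± 0.16, -0.28 ± 0.08, -0.65 ± 0.42 and 0.90 ± 0.41, and none of these was called (adjusted p from 0.0214 to 0.343). When the 6 probe sets were averaged, the difference was 1.13 and remained called. Which transcript each of them measures is not given in the sources used here.

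PDGFD, a ligand of the PDGF receptor beta, ranged between 5.76 (tumor 8) and 9.47 (tumor 14), with a median of 7.27. It measured 5.33 and 5.56 in kidney, 4.63 and 4.43 in liver, and 4.50 and 4.24 in lymph node. Tumors and normal samples did not overlap, although tumor 8 lay close to kidney 2. PDGFD was higher in tumors by 2.66 ± 0.42 (adjusted p = 0.00021 in limma). Within the arrays of low and of full 5′ signal the differences were 2.75 and 2.59, with adjusted p of 0.0449 and 0.0262 in these smaller fits.

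BMP6, a BMP ligand that induces bone formation, ranged between 6.21 (tumor 2) and 9.51 (tumor 1), with a median of 7.94. The normal samples lay in a narrow band, at 4.91 and 5.20 in kidney, 5.23 and 4.90 in liver, and 5.27 and 4.81 in lymph node. No tumor fell within that band. The difference was 2.62 ± 0.40 (adjusted p = 0.000175 in limma), and it was 2.77 and 2.51 within the arrays of low and of full 5′ signal (adjusted p of 0.0192 and 0.0416).

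FGFR4, a receptor tyrosine kinase for FGF ligands that is best known in liver, measured between 4.50 and 5.33 in tumors with a median of 4.98. It was 6.95 and 7.68 in kidney and 6.61 and 6.08 in liver, but 5.30 and 4.71 in lymph node. All tumors were below both kidney and both liver samples, whereas they overlapped lymph node. FGFR4 was lower in tumors by -1.27 ± 0.28 (adjusted p = 0.00426 in limma). The call was lost without kidney 1 (adjusted p = 0.0172), kidney 2 (0.0122) or liver 1 (0.0157), with 1 averaged profile per organ (0.0106), among arrays of low (0.0467) or full 5′ signal (0.158), and in the methods' t-test at its threshold of 0.005 (0.00726).

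**Figure D1:**
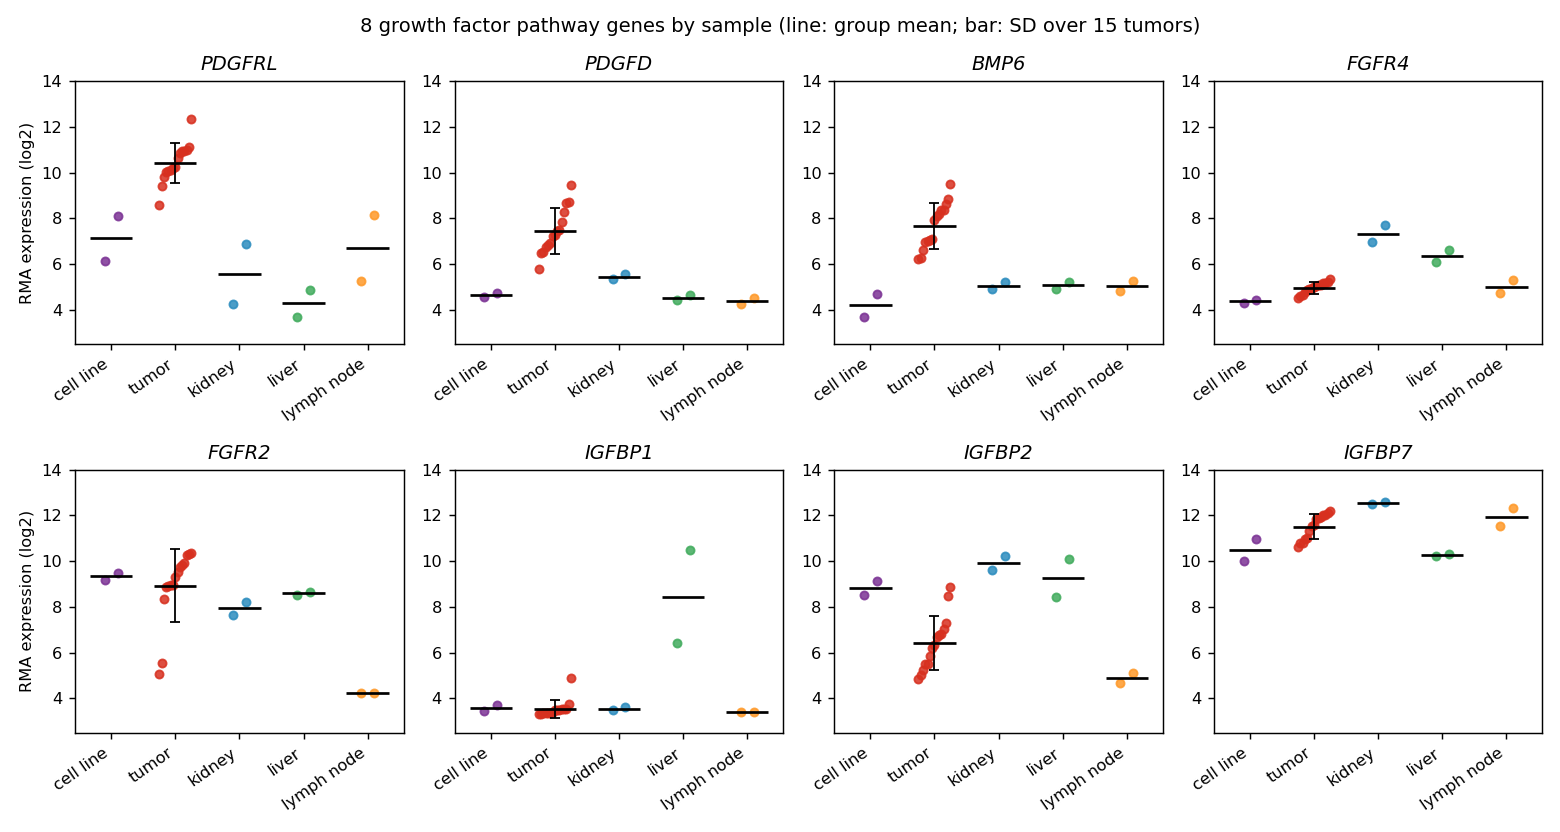
RMA expression (log2, vertical axis) of PDGFRL, PDGFD, BMP6, FGFR4, FGFR2, IGFBP1, IGFBP2 and IGFBP7 in each sample of the cell lines, tumors, kidney, liver and lymph node. Points are samples, horizontal lines are group means and the error bar is the SD over 15 tumors. PDGFRL, PDGFD and BMP6 lie above every normal sample in all 15 tumors, IGFBP1 is high in liver at 10.47 and 6.41, and FGFR2 is at 4.22 and 4.26 in lymph node.

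Several further genes had wide differences that were not called. FGF7, also called keratinocyte growth factor, ranged between 4.01 and 8.53 in tumors and between 3.12 and 3.88 in normal samples. All 15 tumors lay above the highest normal sample, but the difference of 2.26 ± 0.70 had an adjusted p of 0.0391 in limma. TGFB1, the transforming growth factor beta 1 that is stored in bone matrix, differed by 1.83 ± 0.51 (adjusted p = 0.0225), with 9 of 15 tumors above the highest normal sample. FZD6, a Frizzled receptor for Wnt ligands, differed by 1.52 ± 0.39 (adjusted p = 0.012). Its normal samples were at 5.03 to 6.44 apart from kidney 2 at 8.41. Without kidney 2 the gene was called higher, by 1.96 (adjusted p = 0.000433 in limma). It was also called without tumor 14 (0.0078) and with a filter at a mean of 4 (0.00906). The second FZD6 probe set differed by 0.73 ± 0.30 and was not called (0.126).

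Other BMP and TGF-beta members differed less. BMP5, a BMP ligand, differed by 0.98 ± 0.62 and BMP7, a BMP ligand needed for kidney development, by 0.60 ± 0.57. Among receptors and SMADs, BMPR1A, a type I BMP receptor, differed by 0.37 ± 0.33, TGFBR2, the type II TGF-beta receptor, by 0.16 ± 0.38, SMAD2, which carries TGF-beta signals, by 0.38 ± 0.28 and SMAD5, which carries BMP signals, by 0.13 ± 0.44. The lowest adjusted p of these 6 genes in limma was 0.335, for BMP5, in the probe sets used. Second probe sets differed by 1.12 ± 0.44 for TGFBR2 (adjusted p = 0.0986 in limma) and by -0.30 ± 0.11 for SMAD2 (0.0714). Those of BMP7 differed by -0.07 ± 0.08 and 0.02 ± 0.11. GDF3 and GDF9, the oocyte factor, differed by -0.10 ± 0.10 and 0.02 ± 0.09, and the Wnt ligands WNT3 and WNT8B by 0.14 ± 0.09 and -0.02 ± 0.09.

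The IGF axis held the 2 most negative differences of the 37. IGFBP2 and IGFBP1, secreted proteins that bind IGFs, differed by -1.59 ± 0.76 and -1.58 ± 0.70 (adjusted p of 0.186 and 0.149 in limma). IGFBP6, which prefers IGF2, differed by 1.0 ± 0.32 (adjusted p = 0.0455) with 13 of 15 tumors above the highest normal sample. IGF1, the main growth-promoting IGF, differed by 0.19 ± 0.59, and IGF2R, which clears IGF2, by 0.75 ± 0.37. IGFBP7, a matrix-bound relative, had the highest mean of the IGF genes in these samples and differed by -0.06 ± 0.34.

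The remaining 14 members were not called either. The secreted ligands FGF1, FGF2 and FGF8 differed by 0.00 ± 0.11, 0.14 ± 0.10 and -0.11 ± 0.10, the BMP receptor BMPR1B by -0.05 ± 0.10, the Frizzled receptor FZD7 by 0.17 ± 0.15 and IGF2BP2 by -0.11 ± 0.10. FGF13 and FGF14, intracellular FGF relatives that act on sodium channels, differed by 0.67 ± 0.44 and 0.39 ± 0.37, FGFR1, a receptor tyrosine kinase for FGF ligands, by 0.46 ± 0.42, FGFR1OP2 by 0.21 ± 0.46 and IGFBP4, another IGF-binding protein, by 0.36 ± 0.46. BMP2K differed by 0.87 ± 0.29 (adjusted p = 0.0534 in limma), VEGFA by 0.85 ± 0.61 (0.415) and the FGF receptor FGFR2 by 2.01 ± 0.81 (0.109). Of the 37 genes 35 had a mean of at least 4 over all samples, and all 37 were tested.

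**Figure D2:**
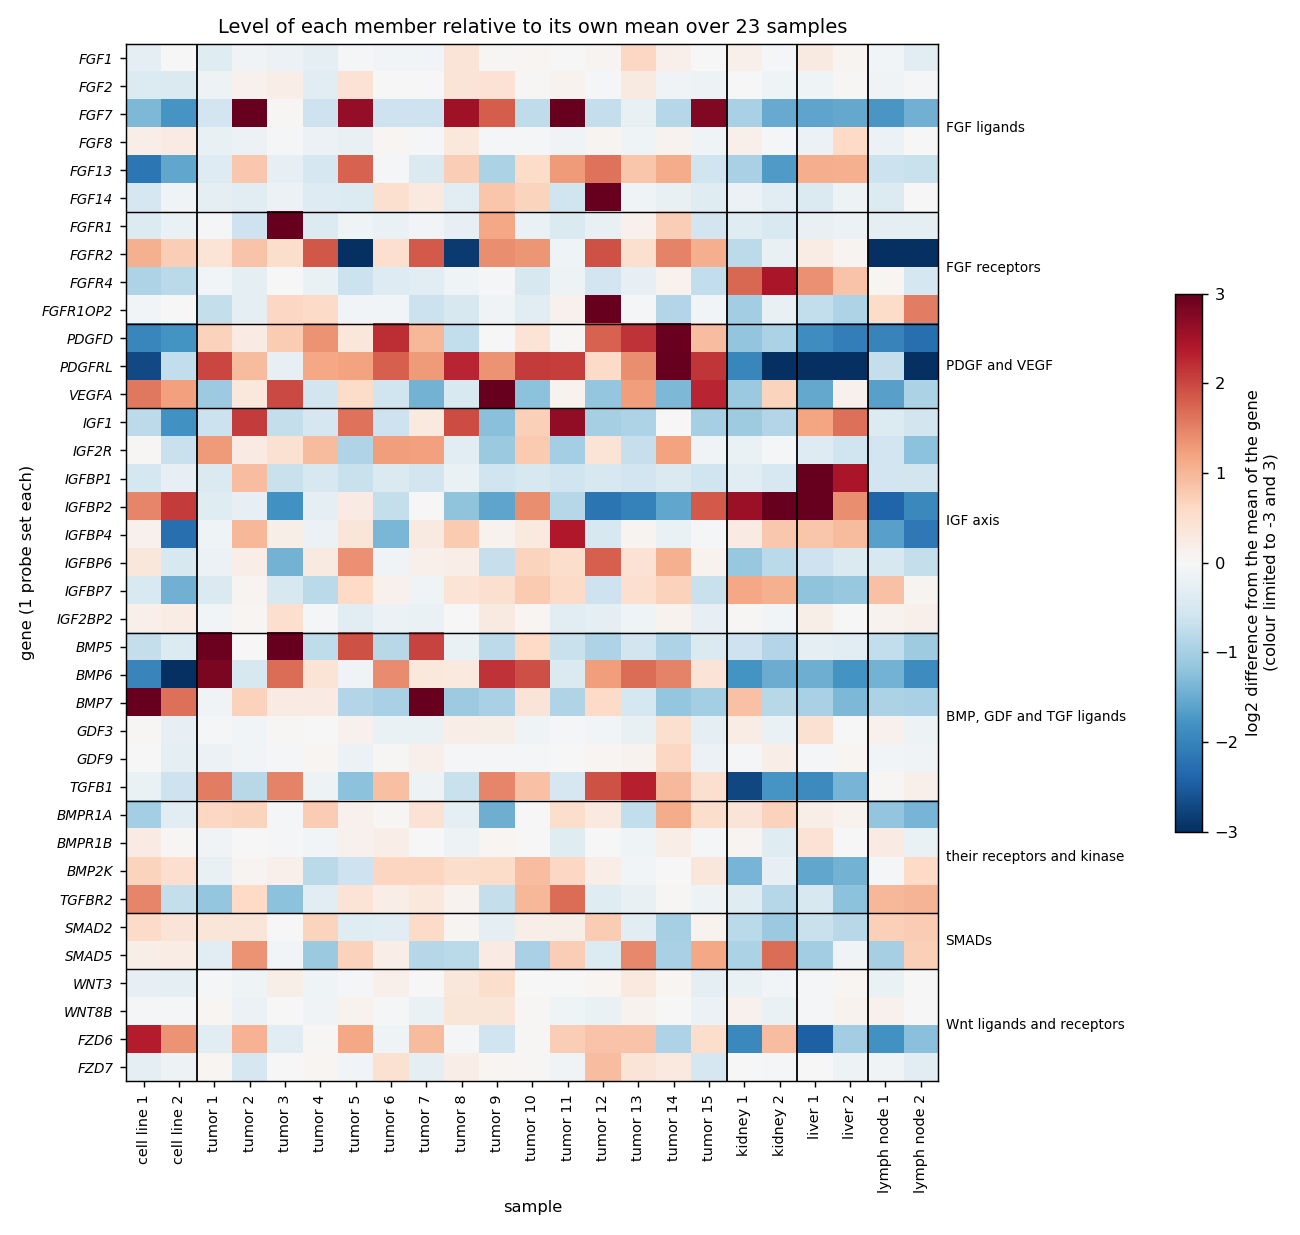
Level of each of the 37 genes (rows, grouped by role) in each of the 23 samples (columns), as the log2 difference from the mean of that gene over all samples, with color limited to -3 and 3. Blocks of red in single tumors mark BMP7 in tumor 7, FGFR1 in tumor 3 and FGF14 and FGFR1OP2 in tumor 12, and IGFBP1 is red in both liver samples.

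Each organ was then taken on its own, in 1 model of all 5 groups. The 3 comparisons share the 15 tumors. Against kidney 4 of 37 genes were called (10.8%, against 7.26% of all probe sets), against liver 6 (16.2%, against 9.28%) and against lymph node 3 (8.11%, against 4.24%). Over the 6540 genes, 1 probe set each, the shares were 10.8%, 13.8% and 5.95%. Within the arrays of low and of full 5′ signal, with 1 array per organ, 1 and 2 of the 4 calls against kidney, 3 and 2 of the 6 against liver and 0 and 1 of the 3 against lymph node were kept. PDGFRL was called higher against each organ, by 4.85 ± 0.77 against kidney (adjusted p = 0.000122), 6.14 ± 0.77 against liver (4.49e-06) and 3.71 ± 0.77 against lymph node (0.00331). The call against kidney was lost without kidney 2 (difference 3.53, adjusted p = 0.0275) and that against lymph node without lymph node 2 (difference 2.28, adjusted p = 0.33). When the 6 PDGFRL probe sets were averaged, the differences from kidney and liver were 0.99 and 0.95 and neither was called (adjusted p of 0.0548 and 0.0576), while the call against lymph node was kept. Against liver, the fourth and the fifth PDGFRL probe sets were called lower, by -0.56 ± 0.10 and -1.92 ± 0.42.

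BMP6 differed by nearly the same amount against each organ, at 2.62 ± 0.65, 2.61 ± 0.65 and 2.64 ± 0.65 for kidney, liver and lymph node. It was called against kidney (adjusted p = 0.00934 in limma) and liver (0.008) but not lymph node (0.0134). These calls lay close to the threshold: the one against kidney was lost in 17 of 23 fits that left out 1 sample, and the one against liver in 10 of 23. PDGFD was higher by 2.91 ± 0.63 against liver (adjusted p = 0.00254) and by 3.07 ± 0.63 against lymph node (0.00318), and its difference of 2.0 ± 0.63 from kidney was not called (0.0439). Both PDGFD calls were lost without either sample of the organ concerned (adjusted p from 0.0386 to 0.0968).

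FGFR2, a receptor for FGF7 and other FGF ligands with a known role in the skeleton, differed most from lymph node. Its tumors ranged between 5.07 and 10.37 with a median of 9.31, against 4.22 and 4.26 in lymph node. Kidney was at 7.66 and 8.23 and liver at 8.66 and 8.53, within the range of the tumors. FGFR2 was higher than in lymph node by 4.70 ± 1.01 (adjusted p = 0.00452 in limma), while the differences from kidney and liver were 0.99 ± 1.01 and 0.34 ± 1.01. The call was lost without either lymph node sample (adjusted p of 0.0709 and 0.0954). The other 4 FGFR2 probe sets differed by 0.28 to 0.81 from lymph node and were not called, and with the probe sets averaged the difference was 1.41 and not called (adjusted p = 0.0153).

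FGFR4 and 2 IGF-binding proteins were lower in tumors than in kidney or liver. FGFR4 was lower than in kidney by -2.36 ± 0.21 (adjusted p = 3.47e-08 in limma) and than in liver by -1.39 ± 0.21 (4.62e-05), and its difference from lymph node was -0.06 ± 0.21. The call against liver was lost without liver 1 (-1.13, adjusted p = 0.0111) and among arrays of full 5′ signal (0.0164). IGFBP2 ranged between 4.86 and 8.89 in tumors, with a median of 6.35, against 9.62 and 10.25 in kidney. No tumor reached kidney, and IGFBP2 was lower by -3.50 ± 0.78 (adjusted p = 0.00403). This call was lost without kidney 1 (adjusted p = 0.0402) or kidney 2 (0.0819). The difference of IGFBP2 from liver was -2.83 ± 0.78 (adjusted p = 0.0163) and that from lymph node 1.55 ± 0.78 (0.335).

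IGFBP1, which the liver secretes in response to fasting, was low in nearly all samples outside liver. It measured between 3.31 and 4.89 in tumors with a median of 3.50, against 10.47 in liver 1 and 6.41 in liver 2. The 2 liver samples differed by more than any pair of samples elsewhere did for this gene, and liver 1 was the array with low 5′ signal. IGFBP1 was lower than in liver by -4.89 ± 0.55 (adjusted p = 9.12e-07 in limma), and its second probe set was lower by -1.59 ± 0.22 (1.93e-05). BMP2K was higher than in liver, at 5.55 to 7.29 in tumors against 4.81 and 4.95 in liver. That difference was 1.68 ± 0.35 (adjusted p = 0.00179), and its call was lost without liver 1 (0.0478) or liver 2 (0.0309). Some cell type markers also differed between tumors and normal samples. All 4 measured stroma genes were called higher in tumors than in normal samples (means of 10.4 to 12.8 in tumors, 6.14 to 7.85 in normal samples), as were both measured osteoclast genes, CTSK and MMP9 (8.41 to 12.9 in tumors, 6.28 to 7.80 in normal samples), 2 of 6 osteoblast and bone matrix genes (7.45 to 9.45 in tumors, 5.26 to 7.41 in normal samples) and 2 of 4 chondrocyte genes (5.74 to 7.80 in tumors, 5.37 to 5.64 in normal samples). Against lymph node 0 of the 2 osteoclast genes were called, and 0 of the 4 chondrocyte genes were called against any single organ. In tumors against normal samples, 1 of 4 endothelial genes was called higher, and 1 of 6 hepatocyte and 1 of 6 kidney tubule genes lower. Of 6 macrophage, 4 pericyte and smooth muscle, 4 skeletal muscle and 2 lymphocyte genes, 0 were called. The part of these cell types in the differences of PDGFRL, PDGFD and BMP6 was not tested.

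**Figure D3:**
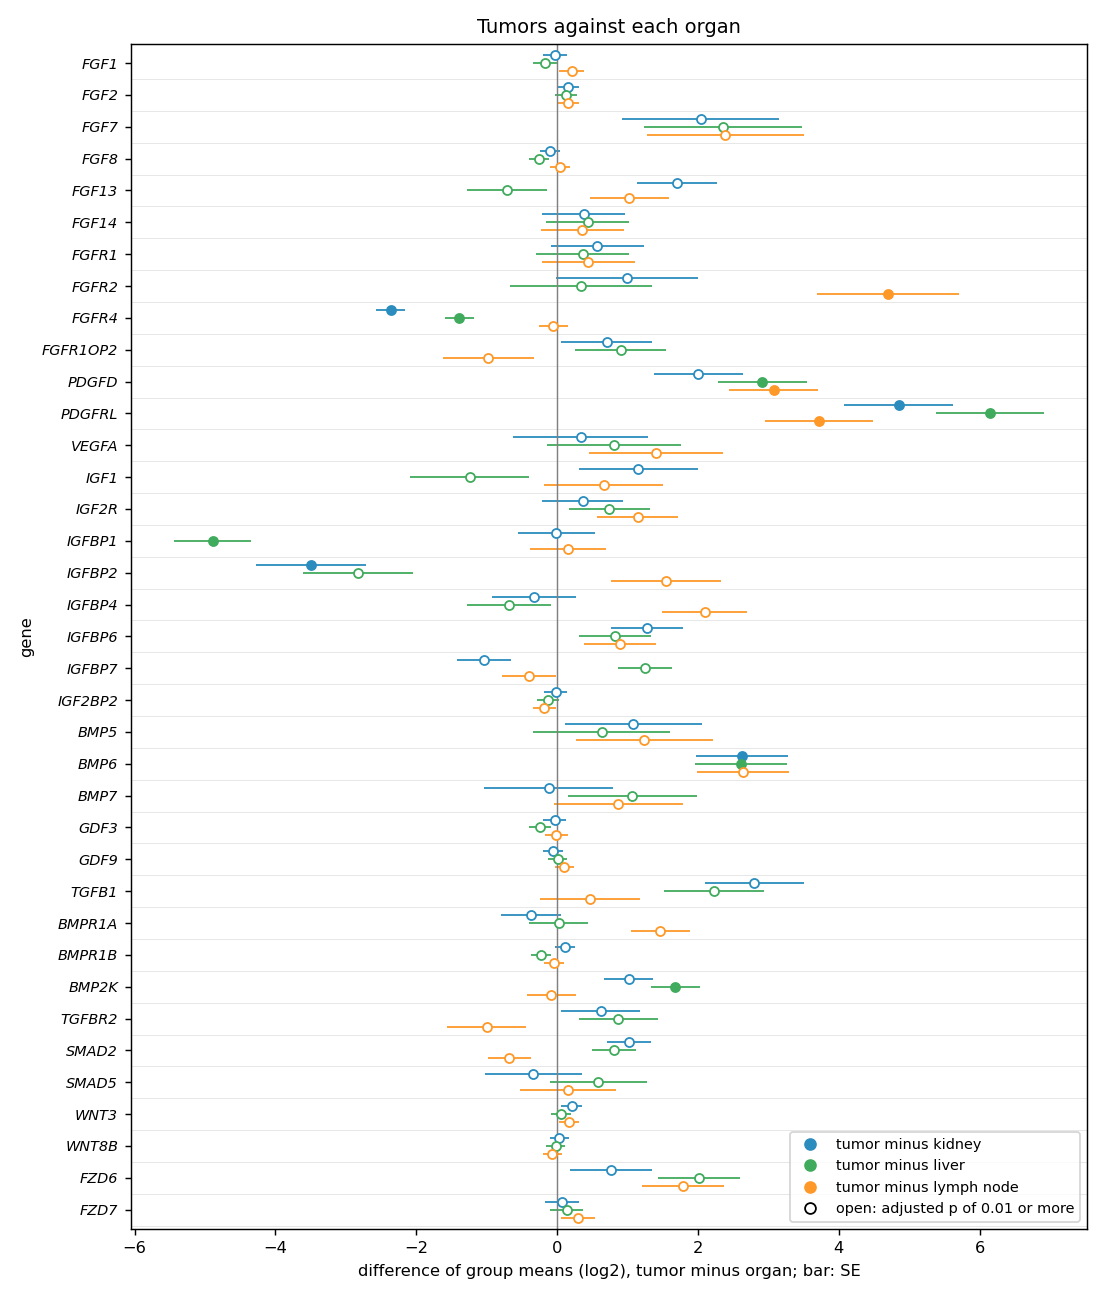
Difference of group means in log2 units (horizontal axis, bars are SE) for tumors minus kidney, tumors minus liver and tumors minus lymph node, for each of the 37 genes. Filled points have an adjusted p under 0.01. PDGFRL is filled against all 3 organs, IGFBP1 at -4.89 against liver and FGFR2 at 4.70 against lymph node.

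Among the 3 organs themselves 2 of 37 genes differed in limma's test over the 6 normal samples (5.41%, against 3.09% of all probe sets and 5.03% of genes). These were FGFR2 (adjusted p = 0.00193), with lymph node low at the values given above, and IGF1 (adjusted p = 0.00832). IGF1 was 5.44 and 5.64 in kidney, 7.71 and 8.17 in liver, and 6.10 and 5.97 in lymph node. Its liver values were the highest, and the 3 pairs did not overlap. The FGFR2 call was lost without liver 1, liver 2, lymph node 1 or lymph node 2 (adjusted p from 0.0148 to 0.0257), and the IGF1 call without any 1 of the 6 samples (0.0248 to 0.044). Both calls were also lost when the probe sets of each gene were averaged (0.028 for FGFR2 and 0.0145 for IGF1).

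In the model of all 5 groups, kidney differed from liver and lymph node in 1 of 37 genes (2.70%, against 4.55% of all probe sets), liver from kidney and lymph node in 2 (5.41%, against 4.75%) and lymph node from kidney and liver in 4 (10.8%, against 8.02%). Over the 6540 genes the shares were 6.06%, 6.68% and 11.9%, each above that of the 37 genes. FGFR4 was higher in kidney by 1.64 ± 0.24 (adjusted p = 6.21e-05) and lower in lymph node by -1.82 ± 0.24 (1.11e-05). In liver, IGFBP1 was higher by 4.96 ± 0.63 (adjusted p = 8.57e-06) and IGFBP7 was lower, at 10.23 and 10.30 in liver against 12.59 and 12.51 in kidney and 12.31 and 11.52 in lymph node. The IGFBP7 difference was -1.97 ± 0.44 (adjusted p = 0.00584), and its call was lost without kidney 1, kidney 2, liver 1, liver 2 or lymph node 1 (0.014 to 0.0605).

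Lymph node was far below both other organs in IGFBP2. IGFBP2 was 4.66 and 5.12 in lymph node, against 9.62 and 10.25 in kidney and 10.08 and 8.45 in liver, a difference of -4.71 ± 0.90 (adjusted p = 0.000905 in limma). IGFBP1 was lower by -2.60 ± 0.63 (adjusted p = 0.00688), a mean over both other organs in which liver was high and kidney was at 3.63 and 3.50, close to the 3.39 and 3.41 of lymph node. SMAD2 was higher, at 7.63 and 7.68 in lymph node against 6.11 and 5.79 in kidney and 6.24 and 6.08 in liver, by 1.59 ± 0.35 (adjusted p = 0.0035). These 3 calls were each lost without lymph node 1 or lymph node 2 (adjusted p from 0.0128 to 0.0717), and SMAD2 also lost its call without kidney 2 or liver 2 (0.0118 and 0.0116) and IGFBP1 without kidney 1 or kidney 2 (0.0179 and 0.0144). In fits of the 6 normal samples alone, FGFR4 in kidney and lymph node, IGFBP1 in liver and lymph node and IGFBP7 in liver were not called, both with the replicate number of the organ samples as a block (adjusted p from 0.0121 to 0.152) and without it, whereas IGFBP2 and SMAD2 in lymph node were called both ways.

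The cell lines were then set against the tumors. Of the 37 genes 3 were called, all lower in cell lines (8.11%, against 6.27% of all probe sets and 8.76% of genes). They were PDGFRL, PDGFD and BMP6, the 3 genes that were higher in tumors than in normal samples, and both comparisons use the same 15 tumors. The median difference of the 37 genes was -0.28, against 0.10 over the 6540 genes and -0.02 over all probe sets.

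BMP6 measured 4.70 and 3.70 in cell lines, against 6.21 to 9.51 in tumors. It was lower by -3.48 ± 0.65 (adjusted p = 0.00148 in limma). PDGFRL measured 6.14 and 8.12 in cell lines, against 8.60 to 12.33 in tumors. Cell line 2 lay close to the lowest tumor, and the difference was -3.29 ± 0.77 (adjusted p = 0.00696). PDGFD measured 4.56 and 4.72 in cell lines, against 5.76 to 9.47 in tumors, a difference of -2.81 ± 0.63 (adjusted p = 0.00563). No tumor overlapped a cell line for these 3 genes, but each call was lost when either cell line was left out. None of the 3 was called among arrays of full 5′ signal alone (adjusted p of 0.0124 to 0.0181 in limma). All 15 tumors were also above both cell lines for FGF13, FGF7, FGF2 and FGFR4, which were not called. FGF7 measured 3.51 and 3.10 in cell lines, against 4.01 to 8.53 in tumors. The share of all genes that separate in this way was not computed. Markers of other cell types were low in cell lines: the mean of 6 macrophage and myeloid genes was 4.97 to 5.30 in cell lines and 7.69 to 10.1 in tumors, that of 4 endothelial genes was 4.62 to 4.71 in cell lines and 6.27 to 8.63 in tumors, and that of the 2 osteoclast genes was 6.48 to 7.67 in cell lines and 8.41 to 12.9 in tumors. The part of these cells, and of the stroma genes given above, in the 3 differences was not tested.

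Other members were far apart between cell lines and tumors without being called. FGF13 measured 3.99 and 4.59 in cell lines, below all 15 tumors (5.19 to 7.92), with a difference of -2.23 ± 0.57 (adjusted p = 0.0119 in limma). BMP7 measured 8.47 and 6.25 in cell lines, above 14 of the 15 tumors, with a difference of 2.86 ± 0.92 (adjusted p = 0.0421). The other 2 BMP7 probe sets differed by 0.20 ± 0.16 and 0.61 ± 0.19. IGFBP2 measured 8.52 and 9.15 in cell lines, above 14 of the 15 tumors in the case of cell line 1 and above all of them in that of cell line 2, with a difference of 2.40 ± 0.78 (adjusted p = 0.0445). FZD6 was above every tumor in both cell lines, at 9.86 and 8.84, but its difference of 1.60 ± 0.58 was not called (adjusted p = 0.07). The second FZD6 probe set was called higher in cell lines, at 8.63 and 9.58 against 5.24 to 7.54 in tumors, by 3.07 ± 0.49 (adjusted p = 0.000327).

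**Figure D4:**
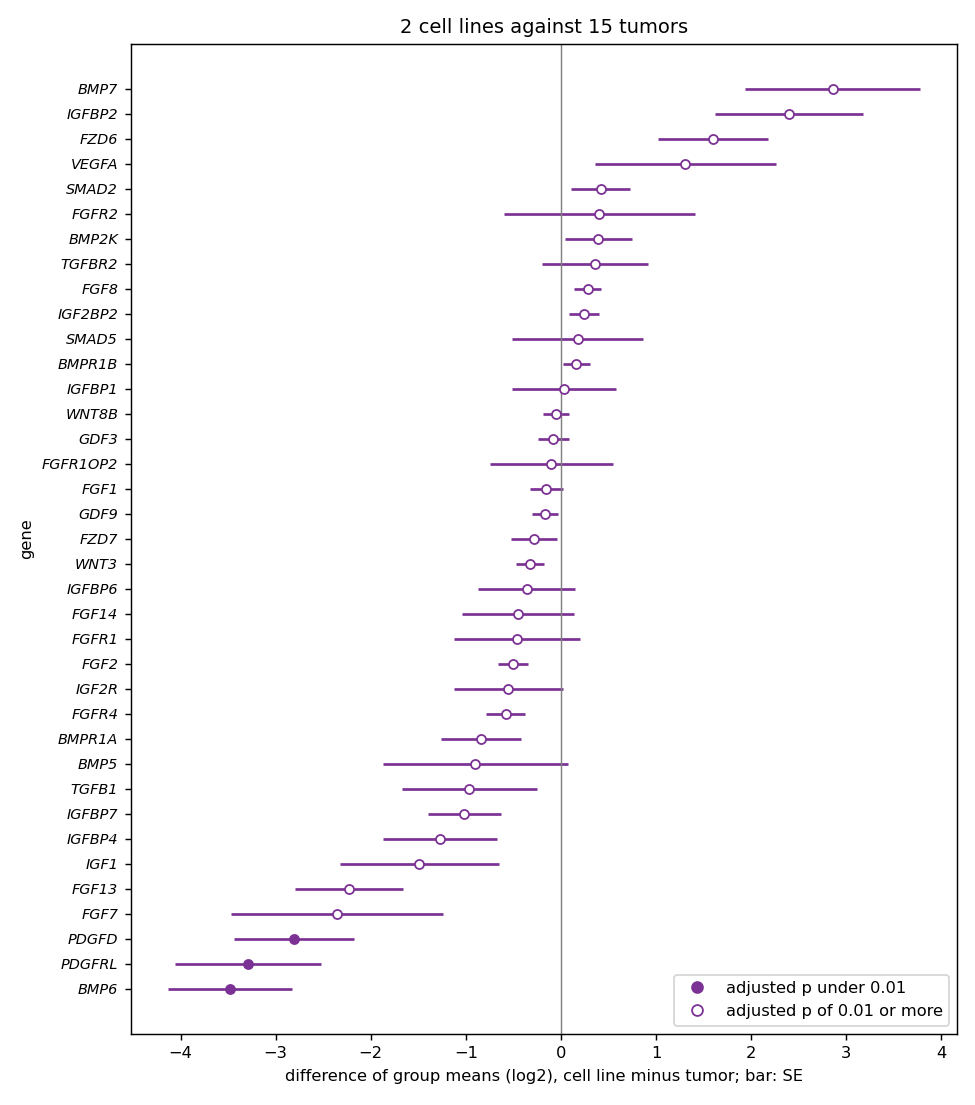
Difference of group means in log2 units (horizontal axis, bars are SE) for cell lines minus tumors for each of the 37 genes, ordered by size. Filled points have an adjusted p under 0.01. BMP6, PDGFRL and PDGFD are the 3 filled points, all below -2.8, and BMP7 and IGFBP2 lie at the other end, at 2.86 and 2.40.

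Many but not all of the 37 genes differed widely from tumor to tumor. The median SD over the 15 tumors was 0.787 for the 37 genes, 0.420 for the 6540 genes and 0.262 for all probe sets. Ranked among the 6540 genes, the SD of the 37 ran from percentile 5.52 (BMPR1B) to 99.1 (FGF7). IGFBP1, FGFR4 and FGF2 were at percentiles 44.5, 23.5 and 21.4. FGF7 (SD 1.76), FGFR2 (1.59), BMP5 (1.54), VEGFA (1.43), BMP7 (1.35), IGF1 (1.31), IGFBP2 (1.18), TGFB1 (1.10), FGFR1 (1.04) and BMP6 (1.0) varied most among the 37.

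FGF7 fell into a high and a low set of tumors. Tumors 2, 5, 8, 9, 11 and 15 lay between 6.69 and 8.53, and the other 9 between 4.01 and 4.90. All 6 high tumors except tumor 8 had full 5′ signal. The 7 tumors with low 5′ signal averaged 4.64 ± 1.23 (SD) and the 8 with full signal 6.55 ± 1.72, a difference of -1.92 ± 0.73 (SE) that was not called (adjusted p = 0.138 in limma). FGFR2 was low in tumors 5 and 8, at 5.07 and 5.57, and between 8.33 and 10.37 in the other 13.

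BMP5, BMP7 and FGFR1 were high in a few tumors each. BMP5 was 7.67 in tumor 3, 6.95 in tumor 1, 6.05 in tumor 7 and 5.94 in tumor 5, whereas its median over the tumors was 3.59. BMP7 was 8.74 in tumor 7 and at most 5.28 in the other 14. FGFR1 was 8.97 in tumor 3 and 6.62 in tumor 9 against a median of 5.26. Tumor 12 stood alone in a pair of further genes, with FGFR1OP2 at 9.62, where the next tumor was at 6.91, and FGF14 at 7.55, where the next was at 5.29.

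VEGFA, which drives blood vessel growth, followed the 5′ signal of the array. It averaged 3.80 ± 0.38 (SD) in the 7 tumors with low 5′ signal, with a range of 3.41 to 4.37, and 5.94 ± 1.23 in the 8 with full signal, with a range of 4.23 to 7.82. SMAD5 averaged 3.85 ± 0.30 and 5.35 ± 0.56 in the same sets, which did not overlap. Of the 37 genes these 2 were called between the sets (5.41%, against 3.18% of all probe sets and 3.84% of the 6540 genes). VEGFA differed by -2.15 ± 0.45 (SE, adjusted p = 0.00902 in limma) and SMAD5 by -1.5 ± 0.23 (0.000725). The second VEGFA probe set differed by -0.19 ± 0.09 and was not called (0.227). Within the 8 tumors of full signal, VEGFA was highest in tumor 9 (7.82), tumor 15 (7.12) and tumor 3 (6.81).

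Levels of TGFB1 and BMP6 moved together over the tumors. Pearson's r was 0.85 and Spearman's rho 0.83 over 15 tumors, with adjusted permutation p of 0.0081 and 0.0126 (two-sided, 100000 resamples). TGFB1 was highest in tumors 13 (9.92), 12 (9.50) and 1 (9.13), and BMP6 in tumors 1 (9.51), 9 (8.85) and 10 (8.63). Without the 2 tumors farthest from the median of TGFB1 r was 0.80, and it was 0.78 within the 7 tumors of low and 0.91 within the 8 of full 5′ signal. The 45 pairs among the 10 genes of widest spread were computed, and p-values were adjusted over them. The 10 genes were picked by their spread in these same arrays, and the pairs were tested after the values had been seen.

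IGF1 ran the other way to TGFB1. Its 4 highest tumors, tumors 11 (9.18), 2 (8.62), 8 (8.47) and 5 (8.15), had TGFB1 at 7.08, 6.74, 6.92 and 6.35, which were the 4 lowest TGFB1 values of the 15. Over the 15 tumors r was -0.81 and rho -0.80 (adjusted permutation p of 0.0081 and 0.0128), r was -0.78 without the 2 tumors farthest from the median of IGF1, and it was -0.70 and -0.85 within the tumors of low and of full 5′ signal. The second IGF1 probe set ranged only between 4.26 and 5.05 in tumors, and pairs were not computed for it. Of the 45 pairs, TGFB1 with BMP6 and TGFB1 with IGF1 passed an adjusted p of 0.05 by Pearson's r. Tumors 2, 5, 8 and 11 held the 4 lowest values of TGFB1 and of BMP6 and the 4 highest of IGF1. The 2 pairs are thus not independent results. The same 4 tumors were also in the high set of FGF7. FGF7 and VEGFA passed by rank alone (rho 0.74, adjusted permutation p = 0.0384), but r was -0.0052 within the tumors of full 5′ signal, and FGF7 fell into 2 separate sets.

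**Figure D5:**
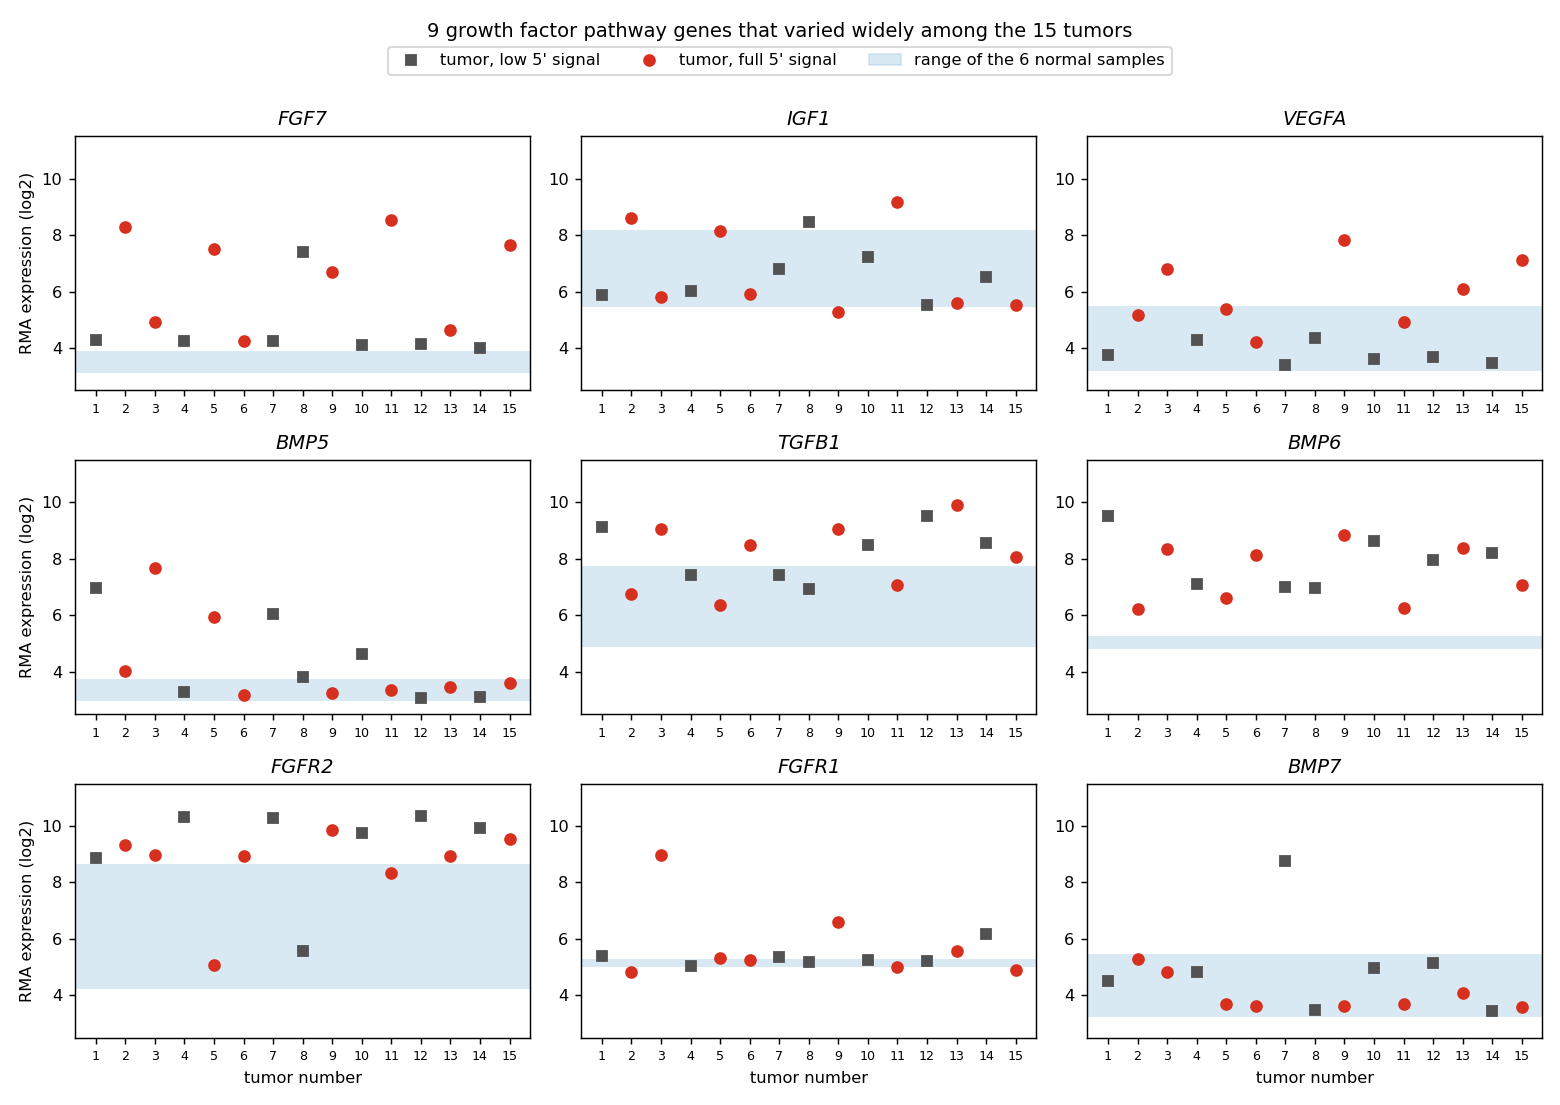
RMA expression (log2, vertical axis) of FGF7, IGF1, VEGFA, BMP5, TGFB1, BMP6, FGFR2, FGFR1 and BMP7 in tumors 1 to 15 (horizontal axis). Gray squares are tumors with low 5′ signal, red circles tumors with full signal, and the blue band is the range of the 6 normal samples. FGF7 lies above 6.6 in 6 tumors and at most 4.90 in the other 9, VEGFA is at most 4.37 in every gray square, and BMP6 lies above the band in all 15 tumors.

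Other genes of the same pathways were counted from lists of receptors, antagonists, adaptors and targets. The lists were chosen with earlier results of these data known. The share called in tumors against normal samples was 5.95% of all probe sets and 9.25% of genes. In that comparison 3 of 16 measured TGF-beta and BMP pathway genes were higher and 0 lower, with a median difference of 0.34. They were ACVR1, a type I receptor for BMP ligands (1.78 ± 0.33, adjusted p = 0.0012 in limma), the BMP target ID3 (1.22 ± 0.24, 0.00166) and SMURF2, a ubiquitin ligase that acts on SMADs and their receptors (0.94 ± 0.17, 0.000829). ACVR1 was above the highest normal sample in 14 of 15 tumors, ID3 in 13 and SMURF2 in 14. Against single organs ACVR1 was called higher than in kidney (1.47 ± 0.35) and lymph node (3.09 ± 0.35), and ID3 than in kidney (1.42 ± 0.33) and liver (1.63 ± 0.33).

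Of 22 measured Wnt pathway genes 4 were higher and 0 lower, to be read against the same shares, with a median difference of 0.34. The secreted Wnt inhibitor WIF1 measured between 4.09 and 13.24 in tumors, with 14 of 15 above the highest of the normal samples, which lay between 3.53 and 5.55 (5.80 ± 1.08, adjusted p = 0.00121 in limma). The others were the Wnt co-receptor RYK, between 7.63 and 9.86 in tumors against 7.30 to 7.56 in normal samples (1.5 ± 0.25, adjusted p = 0.000476 in limma), CTNNB1, which encodes beta-catenin (0.88 ± 0.13, 0.000112), and the casein kinase CSNK1E (0.58 ± 0.12, 0.002). Against single organs, 0 of the 22 Wnt pathway genes were called for kidney, 1 higher and 1 lower for liver, and 2 higher for lymph node. CTNNB1 was lower in cell lines than in tumors, by -0.83 ± 0.18 (adjusted p = 0.00457). Of 12 measured genes downstream of receptor tyrosine kinases 1 was higher, the adaptor SHC1, between 8.58 and 11.2 in tumors against 7.23 to 8.33 in normal samples (2.23 ± 0.32, adjusted p = 8.8e-05), with a list median of 0.05. Of 6 measured Notch pathway genes 0 were called in limma and 1 had an unadjusted p under 0.05, with a list median of 0.46. These list medians stand beside -0.02 over all probe sets.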

How the data were processed

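The authors extracted total RNA, labeled it with the Affymetrix one-cycle assay, hybridized it to Canine Genome version 1.0 arrays as 1 group at a core facility, and normalized the arrays by RMA. The deposited values are log2 RMA expression per probe set, used here as given. They carry no read depth, so precision depends on how many arrays each group has. The submitters' processing notes name RMA and affy, with no version. The methods state a false discovery rate of 0.05 and the study's signature an adjusted p of 0.01, of which the second was used here. Samples were grouped by their labels. Spleen samples named in the methods were not analysed here.

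Of 23913 probe sets 77 controls were left out and 23836 tested. Gene names came from the platform annotation, in which 10549 of the tested probe sets had 1 symbol, 138 several and 13149 none. Of the 37 genes 13 had several probe sets, 58 probe sets in all with the other 24 genes. RMA sets all arrays to 1 distribution, and array medians ranged between 4.73 and 4.95.

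Tests used limma 3.58.1 in R 4.3.3 (lmFit, eBayes, two-sided). Tumors against normal samples were 2 groups of 15 and 6, single organs and cell lines were contrasts in 1 model of 5 groups, and differences among organs were tested over the 6 normal samples. In simulated data with changes of 2 log2 units, 94% were recovered for tumors against normal samples, 78% for tumors against liver, 76% for cell lines against tumors and 0% for differences among organs (34% at 4 units). Apart from these changes, all samples varied around 1 mean per probe set, with the residual SD of the 5 groups. The simulated normal samples thus held no organ differences, and the 94% does not cover genes that differ among organs. A difference above 1.5 between the 3′ and 5′ probe sets of the actin and Gapdh controls defined low 5′ signal. Same-numbered organ samples deviated together (correlations of 0.61, 0.60 and 0.53 between organs), so the number was taken to pair them. The pairing comes from the labels' numbers and these values, and replicate 1 of each organ is also the array with low 5′ signal.

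Named genes were those called in each comparison, the 10 of largest SD over the tumors, the gene of highest mean in each family, PDGFRL, and the other pathway genes called in tumors against normal samples. The genes and lists were chosen with earlier results of these data known. Alternatives were the threshold, the variance prior, a filter at a mean of 4, centering on the array median, the 5′ signal as a covariate, the mean over probe sets, organ or replicate blocks, and leaving out each sample. The comparisons with single organs or cell lines within one class of 5′ signal, and the organ contrasts in the 6 normal samples without a block, were added after seeing the data.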

Additional observations from a re-analysis of the deposited data

Results flagged for a closer look

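In BMP7, kidney 1 stood far from the other 5 normal samples, at 5.48 where the next was at 3.76. The gap was 0.766 of the range of the 6 samples. It was 1 of 37 genes tested in this way. The limit used sets apart about 1 in 20 groups whose samples come from 1 normal distribution. These samples are pairs from 3 organs that differ in 5′ signal, so that rate need not hold for them. Kidney 1 was an array with low 5′ signal.

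The difference between tumors and organ was not the same for each organ in FGFR2 and IGF1, by limma's test among the 3 organs (adjusted p of 0.00193 and 0.00832). For FGFR2 tumors exceeded kidney by 0.99 ± 1.01, liver by 0.34 ± 1.01 and lymph node by 4.70 ± 1.01 (SE). For IGF1 the differences from kidney, liver and lymph node were 1.15 ± 0.84, -1.24 ± 0.84 and 0.66 ± 0.84.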

How the results depend on the processing

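Counts of called genes moved with the threshold, the class of 5′ signal, single samples and the block. At an adjusted p of 0.05 in limma the counts were 8 in tumors against normal samples, 7 against kidney, 10 against liver, 6 against lymph node, 7 in cell lines against tumors, 2 for kidney, 8 for lymph node and 12 for the difference among organs. Among arrays with low 5′ signal, in fits with fewer samples, they were 0, 1, 3 and 0 for tumors against normal samples, kidney, liver and lymph node, and 1 each for liver and lymph node against the other organs. Among arrays with full 5′ signal they were 1, 2 and 3 for tumors against normal samples, kidney and liver, 1 for cell lines against tumors and 0 for liver against the other organs. With the replicate block, in a fit of the 6 normal samples, the counts were 0 for kidney, 3 for liver, 7 for lymph node and 4 for the difference among organs. The same 6 samples without the block gave 0, 2, 5 and 2, and the model of all 5 groups gave 1, 2 and 4 for the single organs. None of the liver calls and 2 of the lymph node calls of that model were among those with the block, and the 5 calls lost were lost without the block too. Liver against the other organs gave 1 with a filter at a mean of 4, and the difference among organs 1 with a trended, robust prior. Leaving out 1 sample gave 3 to 5 calls for tumors against normal samples, 1 to 5 against kidney (fewest without kidney 2), 3 to 7 against liver (3 without either liver), 0 to 4 against lymph node (0 without lymph node 2), 0 to 4 for cell lines against tumors (0 without either), 1 to 2 for kidney (2 without liver 2), 1 to 2 for liver, 1 to 5 for lymph node (1 without either lymph node) and 0 to 1 among organs. Over the single genes named, 1209 values kept their direction and side of the threshold, 128 kept the direction and lost the call, 6 gained it and 10 changed sign. The sign changes were in tumors against normal samples and in genes not called: IGF1 was -0.0228 without kidney 1 (0.52 without liver 2 at the other end). GDF9 was -0.0041 without lymph node 2, -0.0269 without tumor 14 (0.0524 without kidney 2) and -0.10 with full 5′ signal. IGFBP7 was 0.14, 0.12 and 0.08 without kidney 1, kidney 2 or lymph node 1 (-0.33 without liver 1) and 0.15 with full 5′ signal. TGFBR2 was -0.055 without liver 2 (0.40 without lymph node 2) and -0.11 with low 5′ signal. The cause was not tested. With 2 samples in each organ and cell line group, a call there rests on single arrays, and a gene that was not called is not shown to be equal between groups.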
